A study of Arabidopsis thaliana with 2 samples.

Results

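The histone genes of Arabidopsis thaliana were examined in 1 RNA-seq experiment on a line that overexpresses SsCBF1. Members were taken from the annotation words of the deposited gene table: 55 rows name a histone or the histone superfamily, 5 of them were left out because they name a methyl, acetyl or kinase function, and AT1G01370 was set aside by name. This left 49 of 33602 genes. By their locus, 44 of the 49 are histones of the nucleosome (1 H1, 12 H2A, 11 H2B, 12 H3 and 8 H4), 3 encode other proteins with a histone fold (LEC1, AT5G19490 and AT5G50930), and 2 (AT1G75610 and AT4G04408) are annotated as pseudogenes. The words do not reach every histone locus. AT1G06760 and AT2G30620, both with a linker histone H1/H5 domain in the RefSeq notes, GAMMA-H2AX and HTR11 carry other annotation words and are not counted among the members.

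The 35S:SsCBF1-11 library came from 1 transgenic line in the Col-0 background, line 11, in which the constitutive cauliflower mosaic virus 35S promoter drives SsCBF1, a CBF cold-response transcription factor of the wild tomato relative Solanum lycopersicoides. The Col-0 library came from wild-type plants. Each library was made from the pooled aerial parts of 20 plants, 4 weeks old, kept unstressed at 22 °C in days of 16 h light and 8 h dark. The paper reports that this line bolted and flowered some days later than Col-0. Whether the 2 pools held the same organs is not stated. The table holds 6669454 reads for 35S:SsCBF1-11 and 9120358 reads for Col-0, and with 1 library per genotype every test below compares these 2 libraries and has no replicate check.

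DNA in the nucleus is wound around a core of histones H2A, H2B, H3 and H4, and the linker histone H1 binds where the strand enters and leaves the core. Most H2A, H2B, H4 and H3.1 is made during DNA replication, to package the new strands, whereas variants such as H3.3 and H2A.Z can be placed at any time by dedicated chaperones. In plants, unlike in animals, the mRNAs of replication-coupled histones carry a poly(A) tail, so that a poly(A)-selected library captures them. Aerial parts hold few dividing cells, for example in the shoot apex and in young leaves.

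The coding sequences show how alike the genes are. The 5 H3.1 genes encode 1 identical protein of 136 residues, while their coding sequences of 411 bases share only 80.3 to 89.5% of their bases. The 3 H3.3 genes likewise encode 1 protein and share 78.6 to 88.8% of their bases, and H3.1 and H3.3 differ from each other at 4 residues. The 8 H4 genes encode 1 protein of 103 residues from coding sequences of 312 bases that are 78.8 to 98.1% identical. Most copies nevertheless have sequence of their own. Of the 44 nucleosome histone genes, 35 had every 100-base stretch of their transcripts found in no other annotated transcript. The closest pairs of copies were AT1G07660 with AT1G07820 and AT3G45930 with AT3G46320, all H4, with at least 87.9% of their stretches unique. Lower shares were those of AT5G02570 (0%), AT3G27360 (68.8%) and HTB9 (76.1%), each of which shares stretches with a gene that it overlaps.

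Plant histone promoters are known for short shared motifs, among them the octamer CGCGGATC and the hexamer ACGTCA. Both strands were searched in the 300 bases that run from 250 before to 50 after each annotated gene start (RefSeq annotation of TAIR10.1). The octamer was found in 9 of the 44 histone promoters (20.5%), against 39 of all 26711 protein-coding promoters (0.146%), so that histones made up 9 of its 39 holders. The 100 bases just before the start are given for 4 of these genes, 1 each of H3.1, H2A, H4 and H3.3, chosen as examples with the octamer close to the start, and for 2 H2B genes with the hexamer. Capitals mark the motif on either strand.

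AT1G09200, H3.1, chr1:2972335-2972434, minus strand: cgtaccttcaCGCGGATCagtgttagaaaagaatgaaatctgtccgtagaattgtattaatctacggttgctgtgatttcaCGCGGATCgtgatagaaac
HTA10, H2A, chr1:18926711-18926810, plus strand: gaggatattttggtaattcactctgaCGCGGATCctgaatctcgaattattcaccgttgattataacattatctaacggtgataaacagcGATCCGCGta
AT5G59690, H4, chr5:24051374-24051473, plus strand: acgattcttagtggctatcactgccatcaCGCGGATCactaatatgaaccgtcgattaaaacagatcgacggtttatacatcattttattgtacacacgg
AT4G40040, H3.3, chr4:18558946-18559045, minus strand: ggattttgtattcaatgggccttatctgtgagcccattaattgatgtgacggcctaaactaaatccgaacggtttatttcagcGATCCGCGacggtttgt
AT2G37470, H2B, chr2:15736627-15736726, plus strand: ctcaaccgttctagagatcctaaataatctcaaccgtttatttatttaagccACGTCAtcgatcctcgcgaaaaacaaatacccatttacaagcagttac
HTB1, H2B, chr1:2412838-2412937, plus strand: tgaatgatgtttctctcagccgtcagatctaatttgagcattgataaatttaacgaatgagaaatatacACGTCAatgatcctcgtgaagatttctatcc

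AT1G09200 and HTA10 held 2 octamers each in this stretch, beginning 90 and 19 bases before the start of AT1G09200 and 74 and 10 bases before that of HTA10. The octamer of AT5G59690 began 71 bases and that of AT4G40040 17 bases before the start. By class, the octamer was in 3 of 5 H3.1, 2 of 4 canonical H2A, 2 of 8 H4, 1 of 3 H3.3 and 1 of 3 H2A.W promoters, and in 0 of 11 H2B promoters. The hexamer was in 9 of 11 H2B promoters (81.8%), 2 of 5 H3.1, 1 of 3 H3.3 and 1 of 8 H4 promoters and in 0 of 4 canonical H2A promoters, with 14 of 44 over all histones (31.8%), against 9.22% of all promoters. AT5G10400 held both motifs. The E2F motif TTTGGCGC was in 2 of 44 (4.55%), against 0.438% of all promoters, and TTTCCCGC in 0 of 44, against 0.797%. The core CCGAC of the C-repeat, the element that CBF factors are known to bind, was in 7 of 44 histone promoters (15.9%), against 15.0% of all promoters. A match of letters describes these windows only.

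Reads of each gene were set against the library totals by a two-sided exact binomial test with Benjamini-Hochberg adjustment over the 22319 genes that had a read. The call required an adjusted p below 0.001 together with a fold of more than 2, after 0.5 reads were added to each count. Of the 49 members, 45 had a read and could be tested. None of the 45 was called in either direction, against 1.37% of all tested genes, 0.838% of them lower and 0.533% higher. An unadjusted p under 0.05 was reached by 14 members, all lower in 35S:SsCBF1-11, that is 31.1% of 45, against 13.5% of all genes lower and 7.71% higher. The edgeR exact test, run with coefficients of variation of 0.1, 0.2 and 0.4 taken as given, also called 0 members. Over all genes it called 82 lower and 64 higher at 0.1, 21 and 18 at 0.2, and 0 and 2 at 0.4. An assumed spread makes the call stricter, so the 0 members are no added check. With pooled tissue, fewer dividing cells, a different stage of the plants and less histone mRNA per cell cannot be told apart.

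The differences were small and mostly in 1 direction. Over the 38 members with at least 10 reads, the median log2 ratio of 35S:SsCBF1-11 over Col-0 was -0.22 (interquartile range -0.35 to 0.03), against -0.07 over all 18443 genes with at least 10 reads. Of these members 27 lay below 0 and 11 above, whereas 58.6% of all genes lay below 0. The exact 95% interval of the ratio was computed at library totals only and covers counting error only. Among the 32 members with at least 100 reads, it lay below 1 for 12 (37.5%) and above 1 for 0. Of the 11606 genes that deep, it lay below 1 for 19.4% and above 1 for 12.1%. Upper ends near 1 included those of AT1G09200 (0.992), HTA7 (0.988) and HTA9 (0.980). With libraries scaled by edgeR's TMM, the histone median was -0.16 and that of all genes -0.01, and these counts were not repeated. The adjusted p was under 0.05 for 5 members, all lower (11.1% of 45), namely HTA10, HTB9, HTA11, AT1G07820 and AT5G59970, with folds under 2 in each. Of all tested genes, 11.7% passed this limit, 7.18% lower and 4.5% higher. Counted in either direction, the share of members is thus near that of all tested genes, while the share lower is above it. All 5 were among the 32 members with at least 100 reads, and 11.6% of all genes that deep were lower. These shares rest on 5 members, and the difference was not tested.

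**Figure D1:**
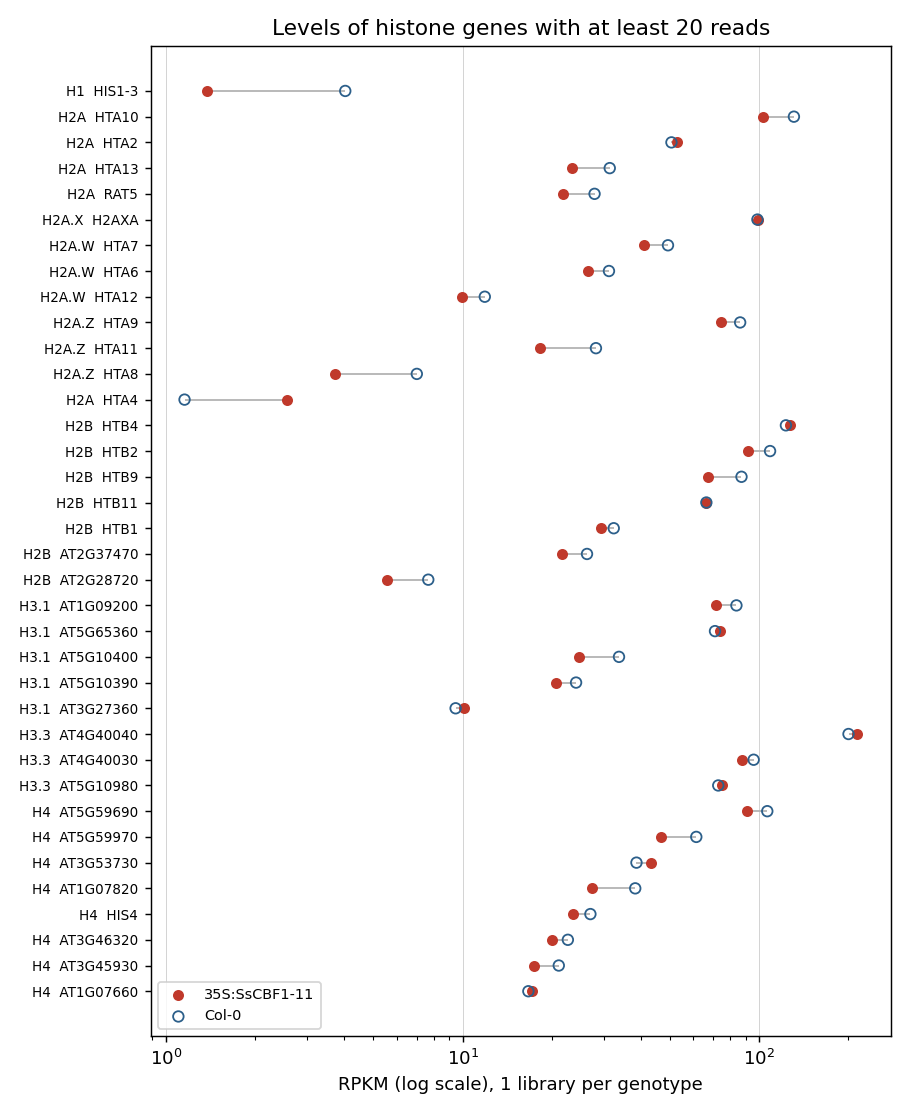
Levels in RPKM (reads scaled by gene length and library total, log axis) of the 36 histone genes with at least 20 reads, filled points for 35S:SsCBF1-11 and open points for Col-0, 1 library each. The levels spread from 1.38 RPKM for HIS1-3 to 213.5 RPKM for AT4G40040 in 35S:SsCBF1-11, far more than they differ between the libraries, and 26 of the 36 genes have the filled point to the left.

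H3 is the histone whose tail carries most of the well-studied methyl and acetyl marks, and its genes included the most abundant member. The H3.3 gene AT4G40040 had 1226 reads in 35S:SsCBF1-11 and 1571 in Col-0, or 213.5 and 200.1 RPKM, a ratio of 1.07 (95% interval 0.990 to 1.15). It was the highest of all members in both libraries and stood at rank 396 among all genes in 35S:SsCBF1-11 and at rank 423 in Col-0. The H3.3 gene AT4G40030 lies 42 bases from it on chromosome 4. It had 447 reads in 35S:SsCBF1-11 and 671 in Col-0, or 87.3 and 95.8 RPKM, a ratio of 0.911 (0.806 to 1.03). AT5G10980, the third H3.3 gene, had 356 and 474 reads, or 74.8 RPKM in 35S:SsCBF1-11 and 72.8 RPKM in Col-0. Its ratio was 1.03 (0.893 to 1.18). No H3.3 gene had an interval that left out 1.

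The H3.1 genes, which supply replicating DNA, fell on both sides of 1. AT1G09200 had 290 reads in 35S:SsCBF1-11 and 464 in Col-0, or 71.6 and 83.8 RPKM, a ratio of 0.855 (0.735 to 0.992, adjusted p = 0.187). AT5G10400 had 109 and 204 reads, or 24.6 RPKM in 35S:SsCBF1-11 and 33.7 RPKM in Col-0, a ratio of 0.731 (0.574 to 0.926). Its neighbour AT5G10390, which lies 577 bases away and encodes the same protein, stood at 20.7 RPKM in 35S:SsCBF1-11 and 24.1 RPKM in Col-0, a ratio of 0.856. AT5G65360 (356 against 468 reads, 73.8 RPKM in 35S:SsCBF1-11 and 71.0 RPKM in Col-0) and AT3G27360 (56 against 72 reads, 10.1 and 9.48 RPKM) had ratios of 1.04 and 1.06. AT3G27360 overlaps AT3G27380 and had 68.8% of its stretches unique, the lowest share among the genes with at least 20 reads. The other 4 H3 loci had at most 2 reads in either library, among them MGH3, the H3 of male gametes, with 0 reads in both.

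H2A genes include the replication-coupled H2A and variants with places of their own in chromatin. HTA10 was the most abundant canonical H2A, with 462 reads in 35S:SsCBF1-11 and 805 in Col-0, or 102.8 and 131.0 RPKM. Its ratio of 0.785 (0.698 to 0.881) had an adjusted p of 5.41e-04 by the exact binomial test, the smallest of all members, but its fold was well under 2. HTA13 had 101 and 185 reads, or 23.4 RPKM in 35S:SsCBF1-11 and 31.4 RPKM in Col-0 (ratio 0.747). RAT5, known from its part in Agrobacterium transformation, stood at 21.7 RPKM in 35S:SsCBF1-11 and 27.9 RPKM in Col-0, a ratio of 0.780. HTA2, also a canonical H2A, had 252 against 331 reads, 52.7 RPKM in 35S:SsCBF1-11, 50.6 RPKM in Col-0 and a ratio of 1.04 (0.880 to 1.23).

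H2AXA encodes H2A.X, which is phosphorylated at DNA breaks. It had 495 reads in 35S:SsCBF1-11 and 673 in Col-0, or 99.2 and 98.7 RPKM, a ratio of 1.01 (0.894 to 1.13). GAMMA-H2AX, the other H2A.X gene, which the annotation words missed, had 107 reads in 35S:SsCBF1-11 and 162 in Col-0, or 20.0 and 22.2 RPKM, a ratio of 0.903 (0.701 to 1.16). The H2A.W genes, whose protein marks heterochromatin, had ratios within a narrow band: HTA7 0.832, at 41.0 RPKM in 35S:SsCBF1-11 and 49.3 RPKM in Col-0, HTA12 0.838, at 9.96 and 11.9 RPKM, and HTA6 0.850, at 26.5 and 31.2 RPKM. Of these only the interval of HTA7 (0.699 to 0.988) left out 1. HTA12 shares its locus with the H2B gene AT5G02570, which lies within it on the other strand.

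H2A.Z, which sits at gene starts and is known for its part in temperature responses, comes from 3 genes here. At library totals all 3 had intervals below 1. HTA9 was the most abundant, with 401 reads in 35S:SsCBF1-11 and 635 in Col-0, or 74.5 and 86.3 RPKM (ratio 0.864, 0.760 to 0.980). Its log2 ratio was -0.21 at library totals and -0.14 with libraries scaled by edgeR's TMM or DESeq2's size factors, where no interval was computed. HTA11 had 84 against 177 reads, 18.3 RPKM in 35S:SsCBF1-11 and 28.2 RPKM in Col-0, a ratio of 0.649 (0.494 to 0.846) and an adjusted p of 0.0125 by the exact binomial test. HTA8 had 17 against 44 reads, 3.70 and 7.01 RPKM, and a ratio of 0.528 (0.283 to 0.944). The weakest-expressed H2A gene, HTA4, had 13 reads in 35S:SsCBF1-11 and 8 in Col-0, or 2.57 and 1.16 RPKM. Among members with at least 20 reads, its ratio of 2.22 alone lay past 2 on the high side. The interval was 0.854 to 6.18 (adjusted p = 0.315, exact binomial test), and HTA4 overlaps AT4G13564 on the other strand.

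H2B forms the dimer with H2A and carries the ubiquitin that goes with active transcription. HTB4 had the most reads of the class, 687 in 35S:SsCBF1-11 and 907 in Col-0, or 127.5 and 123.1 RPKM, a ratio of 1.04 (0.937 to 1.15). HTB2 had 408 and 661 reads, or 91.9 RPKM in 35S:SsCBF1-11 and 108.8 RPKM in Col-0, a ratio of 0.844 (0.744 to 0.956, adjusted p = 0.0578). HTB9 had 327 and 578 reads, or 67.4 and 87.2 RPKM, a ratio of 0.774 (0.673 to 0.888) and an adjusted p of 0.00282. HTB9 overlaps AT3G07315 and AT3G45970 on the other strand, and without a known strand setting their reads cannot be told apart. HTB11, which lies 15370 bases from HTB9 on chromosome 3, had 301 against 414 reads and 66.0 RPKM in 35S:SsCBF1-11 beside 66.4 RPKM in Col-0, a ratio of 0.994. HTB1 (29.2 and 32.3 RPKM), AT2G37470 (21.6 and 26.3 RPKM) and AT2G28720 (5.56 and 7.66 RPKM) had ratios of 0.903, 0.820 and 0.726, each with an interval that held 1. The other 4 H2B loci had at most 11 reads in either library.

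H4, the least variable of the histones, has 8 genes with reads, 6 of them with a ratio below 1. AT5G59690 was the most abundant, with 358 reads in 35S:SsCBF1-11 and 575 in Col-0, or 90.7 and 106.5 RPKM, a ratio of 0.851 (0.744 to 0.973). AT5G59970 had 172 and 309 reads, or 46.7 RPKM in 35S:SsCBF1-11 and 61.4 RPKM in Col-0, a ratio of 0.761 (0.628 to 0.920) and an adjusted p of 0.0379 by the exact binomial test. AT1G07820 had 132 and 253 reads, or 27.3 and 38.2 RPKM, a ratio of 0.713 (0.574 to 0.884) and an adjusted p of 0.0174. AT3G53730, which encodes the same protein, had 156 against 190 reads, 43.3 RPKM in 35S:SsCBF1-11 and 38.6 RPKM in Col-0, and the highest H4 ratio, 1.12 (0.903 to 1.39). AT1G07660 stood at 17.1 RPKM in 35S:SsCBF1-11 and 16.7 RPKM in Col-0, a ratio of 1.03. HIS4, AT3G46320 and AT3G45930 had ratios of 0.875, 0.882 and 0.823, all with intervals that held 1, at 23.6, 20.0 and 17.4 RPKM in 35S:SsCBF1-11 and 27.0, 22.6 and 21.1 RPKM in Col-0.

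The only H1 among the members, HIS1-3, is a linker histone known to be induced by drought and abscisic acid. It had 7 reads in 35S:SsCBF1-11 and 28 in Col-0, or 1.38 and 4.02 RPKM. Its ratio of 0.342 (0.126 to 0.801) was the lowest among the 36 members with at least 20 reads. HIS1-3 alone among these was more than 2-fold lower, by 2.93-fold, and it was not called (adjusted p = 0.0714, exact binomial test). Together, HIS1-3 and HTA4 made up 5.56% of the 36 members with at least 20 reads, against 5.13% of all genes that deep past a fold of 2 in either direction, 3.72% lower and 1.41% higher. Of the H1/H5 domain genes that the words missed, AT1G06760 had 348 against 516 reads (ratio 0.922) and AT2G30620 had 667 against 896 reads (ratio 1.02).

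**Figure D2:**
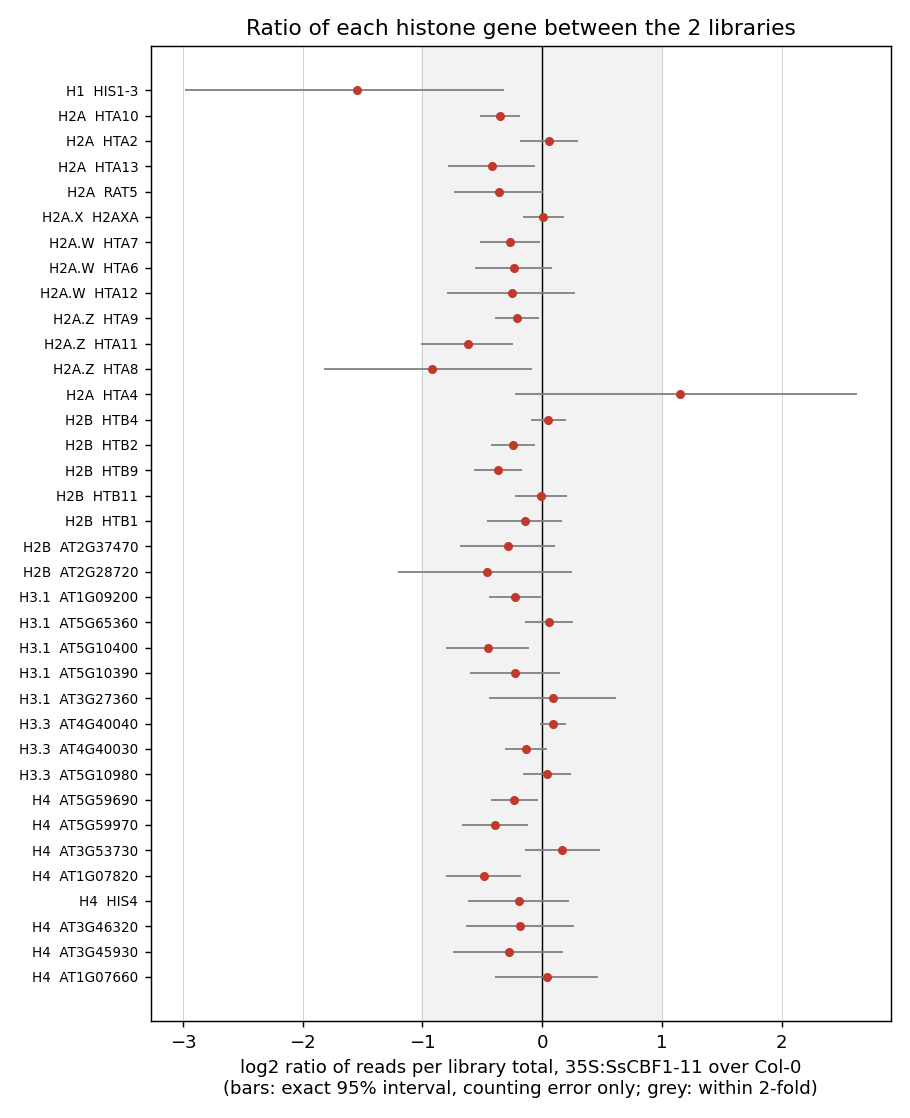
Log2 ratio of 35S:SsCBF1-11 over Col-0 for the 36 histone genes with at least 20 reads, with exact 95% intervals (counting error only, 1 library per genotype) and the range within 2-fold in grey. Of the 36 intervals, taken at library totals, 14 lie wholly below 0 and 0 above, against 16.3% and 9.42% of all genes with at least 20 reads. The points outside the grey range are HIS1-3 on the low side and HTA4 on the high side.

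The remaining 13 members had under 20 reads in both libraries together, 4 of them with 0 reads in both, which allows up to 3 reads in each. These 4 were MGH3, LEC1, a seed transcription factor subunit, and the 2 pseudogenes. Of the proteins that only share the histone fold, AT5G19490 had 5 reads in 35S:SsCBF1-11 and 2 in Col-0, and AT5G50930 had 2 and 7.

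Reads summed over a class do not depend on how reads were split between its near-identical copies. All 44 nucleosome histones had 8376 reads in 35S:SsCBF1-11 and 12557 in Col-0, that is 0.126% and 0.138% of all reads, a ratio of 0.912 (0.887 to 0.938). H4 had 1114 and 1776 reads (ratio 0.858, 0.795 to 0.925) and H2A had 2320 and 3677 (0.863, 0.819 to 0.909). H2B had 1996 reads in 35S:SsCBF1-11 and 2994 in Col-0 (0.912, 0.861 to 0.965). At library totals the intervals of these 3 classes lay below 1, while that of H3 did not, with 2939 reads in 35S:SsCBF1-11 and 4082 in Col-0. Its ratio was 0.985 (0.939 to 1.03), and it stood above 1 when the libraries were scaled by edgeR's TMM (1.03), DESeq2's size factors (1.04) or the upper quartile (1.02). With TMM the ratios of H4, H2A and H2B were 0.899, 0.904 and 0.955, and no interval was computed there. With only genes free of any overlap, at library totals, they were 0.858, 0.867 and 0.946.

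Within classes, ratios were also taken by variant, at library totals. H3.1 had a ratio of 0.911 (0.837 to 0.992) and H3.3 of 1.02 (0.964 to 1.08). With TMM they were 0.954 and 1.07, and no interval was computed there. The ratio of H3.3 over H3.1 in 35S:SsCBF1-11 divided by that in Col-0 was 1.12 (1.01 to 1.24), and H3.3 made up 69.0% of H3 reads in 35S:SsCBF1-11 (Wilson 95% interval 67.3 to 70.7%) and 66.5% in Col-0 (65.1 to 68.0%). This shift rested on AT4G40040. Without that gene the ratio of ratios was 1.05 (0.929 to 1.19) and the H3.3 ratio was 0.959. In H2A, the canonical genes (0.836, 0.769 to 0.909), H2A.W (0.839, 0.738 to 0.952) and H2A.Z (0.802, 0.717 to 0.896) lay below 1, whereas H2A.X, here H2AXA alone, stood at 1.01. It stood at 0.990 with totals that leave out the 10 deepest genes, and together with GAMMA-H2AX at 0.986 (0.886 to 1.10). H2A.Z over H2A.X in 35S:SsCBF1-11 divided by that in Col-0 was 0.797 (0.677 to 0.939), or 0.813 (0.697 to 0.9498) with GAMMA-H2AX counted in, whereas H2A.Z over canonical H2A was 0.959 (0.833 to 1.10), which does not separate them at this depth. H2AXA made up 21.3% of the members' H2A reads in 35S:SsCBF1-11 (19.7 to 23.0%) and 18.3% in Col-0 (17.1 to 19.6%). HTA9 overlaps AT1G52750 on the other strand, and with only the H2A.Z genes free of any overlap the ratio was 0.625.

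**Figure D3:**
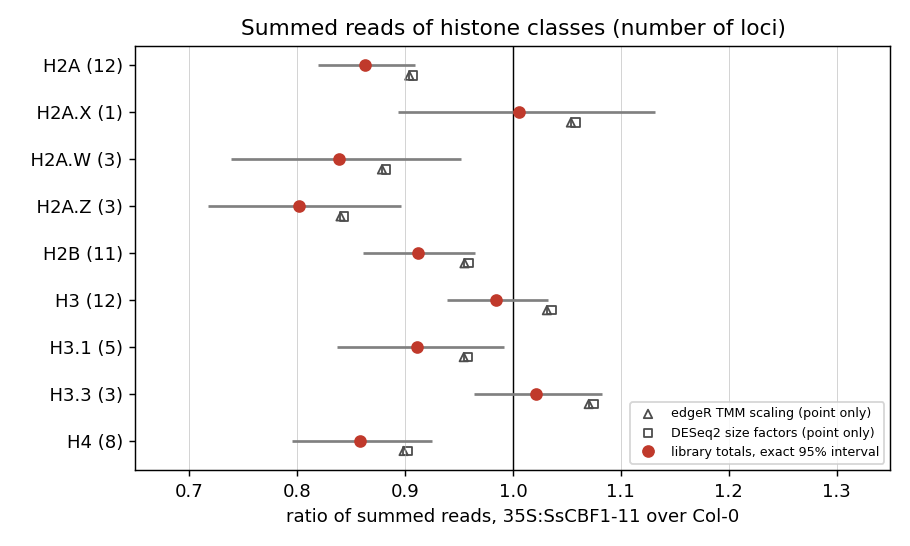
Ratio of summed reads, 35S:SsCBF1-11 over Col-0, for 4 histone classes and their variants, with the number of loci in brackets. Circles and bars are the ratio to library totals with its exact 95% interval, and open triangles and squares are the same ratio under 2 other scalings. The points of H2A, H2B and H4 lie below 1 under all 3 scalings, with no interval computed for the 2 others. The point of H3 lies at 0.985 and on the other side of 1 under both others. Those of H3.3 and H2A.X lie above 1 under all 3 (not drawn: H2A.X, here H2AXA alone, lies at 0.990 with totals that leave out the 10 deepest genes and at 0.986 together with GAMMA-H2AX).

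The ratios were also set beside the promoter motifs. Of the 9 octamer holders, 6 had a ratio below 1, with a median of 0.851 and a range of 0.731 to 1.07, and of the 27 histones with at least 20 reads that lacked it, 20 did, with a median of 0.856. For the hexamer the medians were 0.844 over 11 holders and 0.855 over the 25 others. Of the 3 holders of the CCGAC core with at least 20 reads, HTB4 and H2AXA had ratios above 1 and HTA9 below. These are descriptions of few genes, with no test.

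DNA replication genes act in the same phase of the cell cycle as most histones, and 20 were compared beside them. None of the 20 was called (0 of 20 tested, against 1.37% of all genes), and an unadjusted p under 0.05 was reached by 8, all lower in 35S:SsCBF1-11, against 13.5% of all tested genes lower and 19.7% of those with at least 100 reads. Their median log2 ratio was -0.50, and 18 of 20 lay below 0, against 58.6% of all genes with at least 10 reads. Their summed reads were 1322 in 35S:SsCBF1-11 and 2424 in Col-0, a ratio of 0.746 (0.697 to 0.798). The lowest ratios were those of AT5G63960, the catalytic subunit of DNA polymerase delta, with 16 reads in 35S:SsCBF1-11 and 50 in Col-0 (0.438, adjusted p = 0.0264, exact binomial test), and E2F3, a transcription factor of the S phase, with 11 and 33 reads (0.456). The highest were those of ATE2F2 (41 and 46 reads, 1.22) and E2F1 (25 and 31 reads, 1.10). Among the rest, MCM4, a subunit of the replicative helicase, had 43 reads in 35S:SsCBF1-11 and 116 in Col-0 (0.507, adjusted p = 0.00171). RNR1, the large subunit of ribonucleotide reductase, had 193 and 391 reads (0.675, adjusted p = 1.28e-04). Both were picked out after their values were seen.

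Of 20 histone chaperones and deposition factors, 1 was called, lower in 35S:SsCBF1-11, against 0.838% of all tested genes. ATRX, a remodeller that is known to act in H3.3 deposition, fell to 49 reads in 35S:SsCBF1-11, against 193 reads in Col-0, or 1.51 and 4.36 RPKM, a ratio of 0.347 (0.248 to 0.477, adjusted p = 3.48e-11, exact binomial test), and this call did not hold in the edgeR exact test when the coefficient of variation was set to 0.2 or 0.4. The list as a whole had a median log2 ratio of -0.05, with 11 members below 0 and 9 above, near the -0.07 of all genes. The next lowest was PIE1, the ATPase of the complex that inserts H2A.Z, with 50 reads in 35S:SsCBF1-11 and 116 in Col-0 (0.589, adjusted p = 0.0173). The highest were SEF, another subunit of that complex (13 and 11 reads, 1.62), and SGA2, a chaperone of H3 and H4 (129 and 136 reads, 1.30, adjusted p = 0.183). SPT16, a subunit of the FACT complex that carries H2A and H2B, had 226 against 466 reads (0.663, adjusted p = 8.38e-06), a fold under 2, and was picked out after its values were seen.

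**Figure D4:**
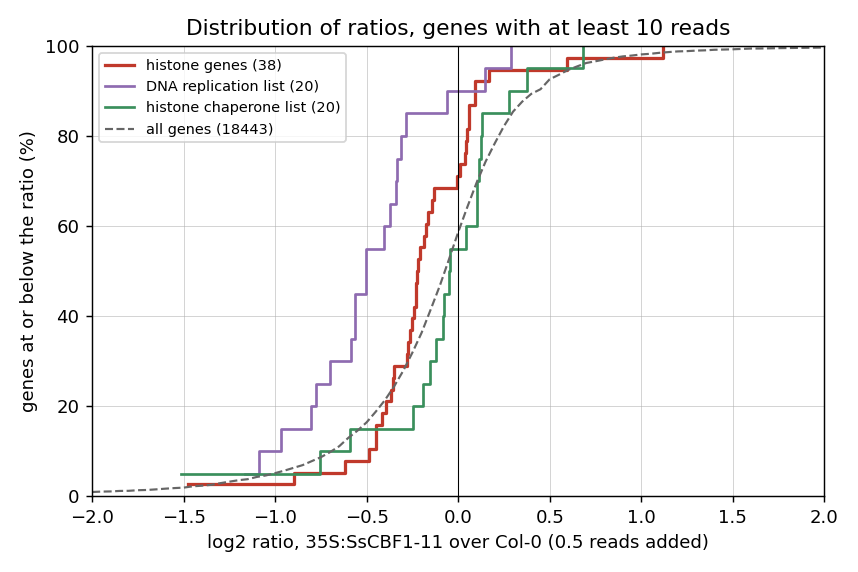
Share of genes (%) at or below each log2 ratio of 35S:SsCBF1-11 over Col-0, with 0.5 reads added, for genes with at least 10 reads: 38 histone genes, 20 DNA replication genes, 20 histone chaperone genes and all 18443 genes (dashed). The histone curve is steep with a median of -0.22, the replication curve lies further left with a median of -0.50, and the chaperone curve, with a median of -0.05, crosses 0 close to that of all genes.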

How the data were processed

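RNA of the aerial parts was poly(A)-selected by the authors and sequenced on an Illumina HiSeq system, 1 library per genotype. The submitters' processing notes name CASAVA 1.7 and the TAIR10 build. For the aligner, the counting rule, the strand setting and reads with several matches, the sources used here state nothing. The authors deposited raw counts of reads per gene and RPKM values, and the RPKM equal the counts over the listed length and library total in 100% of genes (tolerance 1e-06). The authors' fold, log2 and q-value columns and their lists of pathway and ontology terms hold their own comparison and were not used.

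A two-sided exact binomial test set each gene's reads against a share of 42.2% for 35S:SsCBF1-11 (22319 genes, Benjamini-Hochberg adjustment, adjusted p under 0.001 and fold above 2, 0.5 reads added). It replaced models that estimate a spread between replicates, which could not be fitted. Intervals are Clopper-Pearson for ratios and Wilson for shares, at 95%, and cover counting error only. For a ratio of ratios, the sample odds ratio is given with the 95% interval of the conditional odds ratio, which also covers counting error only. The test was checked on simulated counts that held counting error only. Without a spread between libraries, that check cannot show how often the test calls unchanged genes in 2 real libraries. Gene names, coordinates and sequences come from the RefSeq annotation of TAIR10.1, in which all 49 members were found, whereas the deposited table names no coordinates.

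Values are given for every member with at least 20 reads, with ratio and interval for members past 2-fold and for the 3 deepest of each class, and for called members and the 2 highest and 2 lowest of each other list. The members, the classes and both lists were chosen with earlier results of these data known. Alternatives were scaling by DESeq2's size factors, by TMM in edgeR, by the upper quartile or by totals that leave out the 10 deepest genes, at least 10 reads per gene, other pseudocounts and thresholds, the edgeR exact test with a preset coefficient of variation, and members with mostly unique sequence. Python 3.11.15, numpy 2.4.6, pandas 2.3.3, scipy 1.17.1, matplotlib 3.10.9, R 4.3.3, edgeR 4.0.16 and DESeq2 1.42.0 were used.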

Additional observations from a re-analysis of the deposited data

How the results depend on the processing

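Under all 13 alternative settings 0 histone members were called. Of 572 values of the 44 named genes, 565 kept their direction and side of the threshold. The direction could turn only where the scaling or the pseudocount was changed. The other settings keep each gene's ratio by construction, and the setting with mostly unique sequence alters no value of these genes. The sign of the log2 ratio turned for HTB11 (AT3G46030), to 0.059 with TMM, 0.065 with DESeq2's size factors and 0.039 with the upper quartile, and for H2AXA (AT1G08880), to -0.014 with totals that leave out the 10 deepest genes, and neither gene was called. The call of ATRX was lost when the coefficient of variation was set to 0.2 or 0.4, which left 0 chaperone genes called. With a fold of 1.5 the chaperone list had 2 called lower, and with an adjusted p under 0.05 the replication list had 1, AT5G63960. The histone median log2 ratio was -0.16 with TMM, -0.15 with DESeq2's size factors and -0.18 with the upper quartile, where the median of all genes was -0.01, 0.00 and -0.03. A scaling moves both medians alike, by construction. The ratio of all members was 0.956, 0.960 and 0.942 under these 3 scalings, and that of H3 was 1.04 with DESeq2's size factors. Over all genes, 187 were called lower and 119 higher, against 144 and 134 with TMM, 141 and 136 with DESeq2's size factors, 413 and 189 at an adjusted p under 0.05, and 409 and 232 at a fold of 1.5. Coefficients of 0.1, 0.2 and 0.4 gave 82 and 64, 21 and 18, and 0 and 2. Of 3 alternatives chosen after seeing the data, members that overlap no other gene gave an H2A.Z ratio of 0.625 and 0 members more than 2-fold higher, leaving out AT4G40040 gave 0.933 for H3 and 0.959 for H3.3, and adding GAMMA-H2AX gave 0.986 for H2A.X. No replicate could be left out. No paired analysis was possible because each genotype has 1 library.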
